A study of Homo sapiens with 9 samples.

Results

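The heat shock chaperones examined here were 10 genes taken by name from a table of 33861 genes: HSPA1A, HSPA1B, HSPA8, HSPH1, HSP90AA1, HSPD1, HSPE1, HSPB1, DNAJB1 and HSF1. All 10 were present in the table and all 10 were among the 20988 genes with enough reads to be tested. RNA was sequenced from HCT116, an established line of human colorectal cancer cells, in 9 libraries that formed 3 groups of 3. The NC libraries were the control cells. The Activin libraries came from cells given activin A, a ligand of the TGF-beta family, at 100 ng/mL for 5 days. The Activin+HGF libraries came from cells given the same activin A treatment and then hepatocyte growth factor (HGF), the ligand of the MET receptor, at 20 ng/mL for 5 further days. All groups were the same cell line. HGF, the 5 further days in culture and any end of the activin treatment cannot be told apart. The sources used here do not say whether activin was kept during HGF, and they give no culture time for NC. No label says whether the replicates were separate cultures, and p-values therefore measure only the spread between these libraries. The study asked how sequential activin and HGF change gene expression in colorectal cancer cells.

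Chaperones bind unfolded or partly folded proteins and help them to reach or keep their shape. HSP70 proteins bind and release exposed stretches of a client in a cycle driven by ATP. J-domain proteins such as DNAJB1 bring clients to HSP70 and start the cycle, and HSP110 proteins such as HSPH1 release the nucleotide so that it can begin again. HSP90 takes clients at a late stage of folding, many of them kinases and hormone receptors. HSP60 and HSP10, the products of HSPD1 and HSPE1, form a closed folding chamber in mitochondria, and the small heat shock protein HSPB1 holds unfolding proteins without ATP. HSF1 is the transcription factor that activates most of these genes when proteins unfold, by binding heat shock elements, which are inverted repeats of a unit written as GAA or TTC. Tumour cells are known to hold many of these proteins at high levels.

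The heat shock elements are shown first because they are the kind of sequence that HSF1 is known to bind. Promoter windows of 300 bases, from 250 bases before to 50 bases after the annotated RefSeq start (GRCh38.p14), were searched for GAA and TTC units in alternation with 2 bases between neighbours. The 2-unit forms were GAANNTTC and TTCNNGAA, the 3-unit forms were GAANNTTCNNGAA and TTCNNGAANNTTC, both strands were searched, and every 3-unit match also holds 2-unit matches. Windows were matched for 9 of the 10 genes (13 windows in all) and not for HSF1. A 2-unit match stood in 8 of the 13 windows, which belonged to 7 genes, and a 3-unit match stood in 3 of them, from HSPA8, HSP90AA1 and HSPD1. Over all 35116 windows, 13.5% held a 2-unit match and 0.49% a 3-unit match. The windows of HSPH1 and HSPE1 held no match of either form. The HSPE1 window began at base 197500129, and the HSPD1 piece printed below lay outside it. Another window of HSPD1 also held no match. The sequences below are written 5′ to 3′ on the strand of the gene, with the matched units in capitals.
HSPA1A (chr6:31815426-31815455, plus strand): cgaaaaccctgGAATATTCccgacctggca
HSPA1B (chr6:31827622-31827651, plus strand): cgaaacccctgGAATATTCccgacctggca
HSPA8, farther from the start (chr11:123062346-123062374, minus strand): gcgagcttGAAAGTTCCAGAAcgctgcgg
HSPA8, nearer to the start (chr11:123062171-123062199, minus strand): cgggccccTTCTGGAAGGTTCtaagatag
HSP90AA1 (chr14:102087104-102087133, minus strand): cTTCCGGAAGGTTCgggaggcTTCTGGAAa
HSPD1 (chr2:197500062-197500090, minus strand): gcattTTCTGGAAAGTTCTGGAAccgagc
HSPB1 (chr7:76302480-76302509, plus strand): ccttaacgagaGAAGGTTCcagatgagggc
DNAJB1, farther from the start (chr19:14518456-14518485, minus strand): cgggcggggcgGAAGGTTCtggagggggct
DNAJB1, nearer to the start (chr19:14518426-14518455, minus strand): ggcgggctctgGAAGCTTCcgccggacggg
The pieces of HSPA8, HSP90AA1 and HSPD1 overlapped exons of some annotated transcripts, and the HSPD1 piece also lay in an exon of the neighbouring HSPE1, whose gene runs from the opposite strand. The other pieces lay in no annotated exon. The match in another window of DNAJB1 began at the start of its transcript and is not printed. A match describes letters in a window and not a bound site, and no binding was measured in these data.

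The 9 libraries held 57453977 to 77016167 counts each. Their scaling factors by TMM adjust the totals for differences in composition. They were 1.03 to 1.07 in NC and 1.17, 0.988 and 1.16 in Activin replicates 1, 2 and 3. In Activin+HGF they ran from 0.783 to 0.926, with the lowest in replicate 1. Correlations of log values between libraries were 0.969 to 0.988 within groups and 0.918 to 0.971 between groups, over genes and as a description. Inside their groups, Activin replicate 2 (0.9708 and 0.9695) and Activin+HGF replicate 1 (0.973 and 0.969) correlated least with the other libraries. The summed level of 10 colon epithelial markers was 668 to 722 FPKM in NC, 556 to 759 in Activin and 645 to 876 in Activin+HGF, although 3 of the 10 stayed under 0.5 FPKM in every library. Single markers did not move together. KRT20 was 1.94 to 2.64 FPKM in NC, 0.35 to 1.21 in Activin and 0.45 to 0.96 in Activin+HGF. CDH1 was 9.77 to 15.08, 19.11 to 37.55 and 14.19 to 22.66 FPKM in these groups. EPCAM was 90.76 to 97.73, 77.19 to 82.94 and 118.91 to 133.48 FPKM. KRT19 was 271.2 to 275.16, 250.88 to 348.06 and 259.66 to 437.8 FPKM. Of 8 markers of other cell types, 6 were under 0.5 FPKM in every library, and the summed level was 2.79 to 3.76 FPKM in NC, 9.99 to 12.7 in Activin and 8.78 to 11.2 in Activin+HGF. CD68, a lysosomal protein used as a macrophage marker, and COL1A1, a collagen chain, were the markers above that level, and their part in the results below was not tested.

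Activin+HGF replicate 1 stood apart from the other libraries of its group for these genes. The 10 members together took 0.583% to 0.600% of the counts in NC and 0.167% to 0.204% in Activin. They took 1.58% in Activin+HGF replicate 1, against 0.509% and 0.470% in replicates 2 and 3. HSPA8 alone accounted for 0.766% of the counts of replicate 1. Of the 10 members, 7 were highest in replicate 1 among the Activin+HGF libraries, where 39.3% of all genes tested were highest in that library. The ratio of replicate 1 to the mean of the other 2 libraries was 7.47 for HSPA1B, 4.68 for DNAJB1, 4.47 for HSPA8, 2.65 for HSP90AA1 and 2.42 for HSPH1. The calls of members below are therefore given with and without this library where it changes the call or the size, and so are the calls of listed genes that are lost without it. Shares of all genes tested with a call are those of the fit on all 9 libraries. The number of calls over all genes also moved when 1 library was left out.

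**Figure D1:**
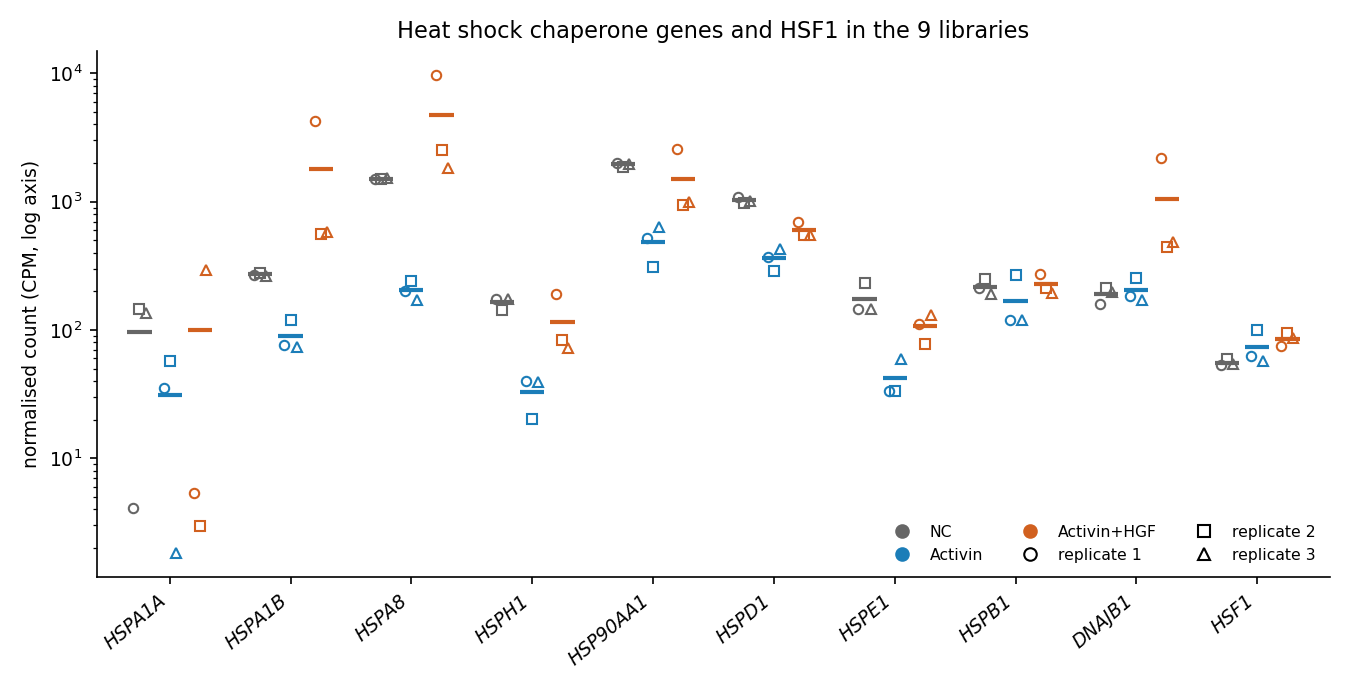
Normalised count (CPM, counts scaled to library size, on a log axis) of each of the 10 genes in the 9 libraries. Colours mark the groups, symbols the replicates and horizontal bars the group means. Activin libraries lie below both other groups for HSPA1B, HSPA8, HSPH1, HSP90AA1, HSPD1 and HSPE1, Activin+HGF replicate 1 (circle) is far above replicates 2 and 3 for HSPA1B, HSPA8 and DNAJB1, and HSPA1A is spread widely inside every group.

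In Activin against NC, 5 of the 10 members fell and none rose, where 18.0% of all genes tested passed, 9.58% higher and 8.41% lower. The test was the quasi-likelihood test of edgeR, its p-values were adjusted by Benjamini-Hochberg over all genes tested, and a gene passed at an adjusted p under 0.05. The 5 were HSPA8, HSPH1, HSP90AA1, HSPD1 and HSPE1, and each fell by more than 2-fold, a rule that 4.62% of all genes tested met in the lower direction. In bulk RNA, fewer cells that express a gene and less RNA per cell cannot be told apart. Leaving out Activin+HGF replicate 1, which is in neither group, 6 fell, with HSPA1B added. The median log2 fold change of the 10 members was -1.60, against 0.02 over all genes tested. The values of 6 members did not overlap between the groups, which was so for 42.2% of all genes tested.

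In Activin+HGF against Activin, 7 of the 10 members rose and none fell, where 12.9% of all genes tested passed, 7.41% higher and 5.45% lower. HSPA1B and DNAJB1 joined the 5 genes above, and 6 of the 7 rose by more than 2-fold, which 3.87% of all genes tested did. The median of the 10 members was 1.65, against -0.04 over all genes tested, and 7 members did not overlap, against 32.7% of all genes tested. Leaving out Activin+HGF replicate 1, 6 members rose. The count was lower without Activin replicate 1, with 2 members, and without Activin replicate 3, with 3 members. It was higher without Activin replicate 2, when HSPB1 and HSF1 also passed. The number of all genes tested that passed also moved with the library left out, as given in the last section. These counts therefore cannot be set against the 12.9%.

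In Activin+HGF against NC, 3 members rose and 1 fell, where 31.4% of all genes tested passed. HSPA1B, HSPA8 and DNAJB1 were higher, which was so for 16.4% of all genes tested, and HSPD1 was lower, which was so for 15.0%. The median of the 10 members was 0.06, against -0.03 over all genes tested. The values of 6 members did not overlap between the groups, against 53.8% of all genes tested. Of the 5 members that passed without Activin+HGF replicate 1, 2 were higher and 3 lower. When library totals replaced TMM, 2 were higher and 2 lower. All 3 comparisons share libraries, so that their values stand side by side and are not independent. With 3 libraries against 3, an exact two-sided permutation test of a single gene cannot go below p = 0.1, and the adjusted p-values here come from edgeR's model across all genes.

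**Figure D2:**
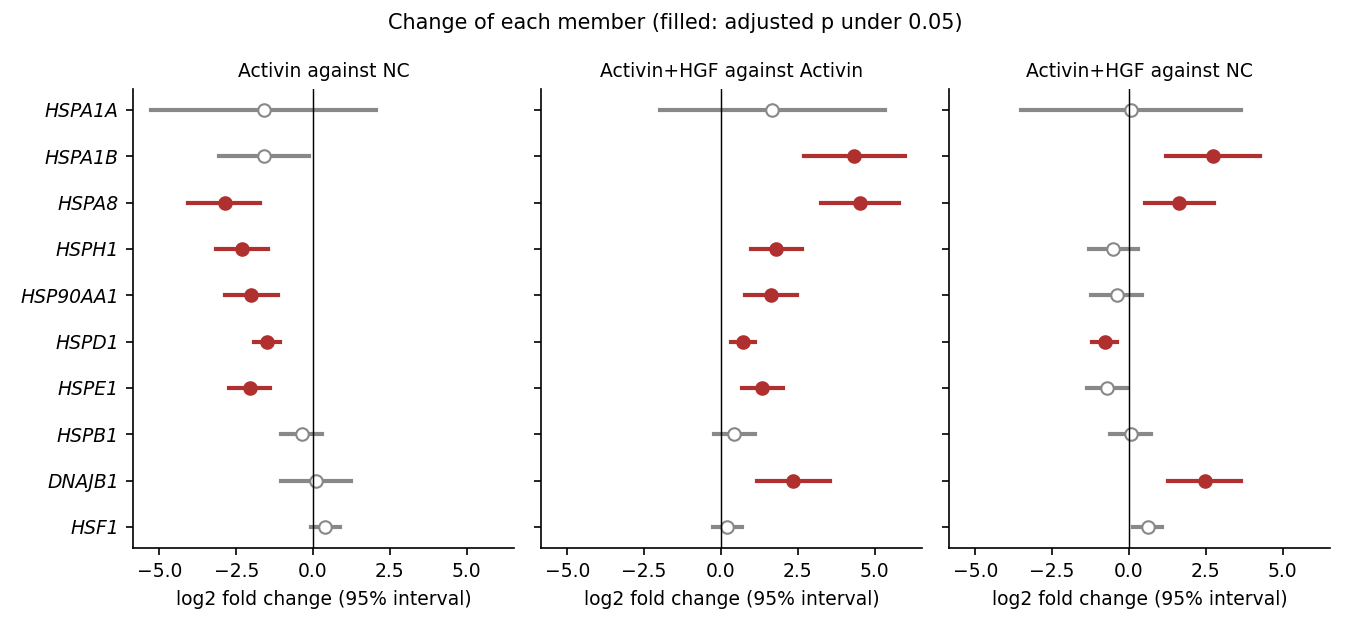
Log2 fold change (x axis) of each gene in the 3 comparisons, with the 95% interval as a line. Filled red points passed at an adjusted p under 0.05 and open grey points did not. In the first panel 5 genes are filled and left of 0, in the middle panel 7 are filled and right of 0, and in the last panel HSPA1B, HSPA8 and DNAJB1 are right of 0 and HSPD1 is left of it.

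HSPA8 (chromosome 11, 123057489 to 123063230, minus strand) encodes HSC70, the HSP70 that cells make without stress. Its normalised count was 1498, 1494 and 1537 CPM in NC, 202.5, 242.0 and 169.7 CPM in Activin, and 9784, 2540 and 1834 CPM in Activin+HGF. Every Activin library was below every NC library, and every Activin+HGF library was above both. HSPA8 fell by 2.88 on the log2 scale in Activin against NC (SE 0.531, edgeR adjusted p = 0.00476), a 7.37-fold lower level. It rose in Activin+HGF against Activin by 4.53 (SE 0.573, edgeR adjusted p = 0.00322), or 23.1-fold. That change was 3.42 without Activin+HGF replicate 1 and still passed (edgeR adjusted p = 0.000173). Against NC the level in Activin+HGF was 3.13-fold higher (log2 1.64, SE 0.507, edgeR adjusted p = 0.0318). This last call rested on replicate 1: without it the log2 fold change was 0.54 (edgeR adjusted p = 0.0694). It was also lost without any 1 of the NC libraries (1.60 to 1.65, edgeR adjusted p = 0.0845 to 0.0925).

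HSPA8 introns hold 3 small nucleolar RNA genes, SNORD14C, SNORD14D and SNORD14E, which are processed from the spliced introns of the host transcript. They were 0.472 to 0.866, 0.0595 to 0.994 and 0.147 to 0.298 CPM in NC, so that few reads stood behind each value. In Activin they were 0.0136 to 0.160, 0.0136 to 0.226 and 0.0665 to 0.192 CPM. In Activin+HGF replicate 1 the values were 5.64, 7.77 and 4.32 CPM, and in replicates 2 and 3 none exceeded 0.742 CPM. Replicate 1 was therefore high over these intron-encoded genes as for HSPA8 itself. Its ratios to the mean of the other 2 libraries were 14.9, 20.2 and 9.92. Reads of unspliced HSPA8 transcripts over these introns cannot be told apart here from reads of the small RNAs. SNORD14E passed in Activin+HGF against Activin (log2 3.52, edgeR adjusted p = 0.0398) and against NC (2.97, edgeR adjusted p = 0.035), and both calls were lost without replicate 1 (1.54 and 0.99, edgeR adjusted p = 0.271 and 0.408). SNORD14C and SNORD14D did not pass against Activin (edgeR adjusted p = 0.0732 and 0.0634). Of all counts from 1 to 40 in the table, 35.0% were multiples of 4, where 25.0% of these whole numbers are, so that a low count may not stand for as many independent reads.

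HSPA1A and HSPA1B encode the stress-inducible HSP70 and lie side by side on the plus strand of chromosome 6, HSPA1A at 31815543 to 31817946 and HSPA1B at 31827738 to 31830254. Their coding sequences of 1926 bases differed at 4 positions in the reference transcripts, which makes them 99.79% identical. Counted from the first base of the coding sequence, with the HSPA1A base first, the differences were G1710T, G1860C, C1905T and A1920G. The longest identical run was 1709 bases. Reads from that run cannot be assigned to one copy, and how the counting divided them is not given in the sources used here, so the split between the copies is uncertain.

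HSPA1B was 270.2, 279.9 and 261.8 CPM in NC, 76.23, 120.3 and 73.15 CPM in Activin, and 4284, 563.0 and 583.7 CPM in Activin+HGF. The 3 groups did not overlap. In Activin against NC the log2 fold change was -1.59 (95% interval -3.06 to -0.12), which did not pass after adjustment (edgeR adjusted p = 0.129). This missed call depended on a library outside the comparison. It passed without Activin+HGF replicate 1 (-1.59, edgeR adjusted p = 0.00087) and in a fit of the 6 libraries compared (-1.58, edgeR adjusted p = 0.00312). HSPA1B rose by 4.33 in Activin+HGF against Activin (SE 0.742, edgeR adjusted p = 0.00779), or 20.1-fold, and by 2.74 against NC (SE 0.69, edgeR adjusted p = 0.0131), or 6.69-fold. Leaving out Activin+HGF replicate 1 made these 2.68 and 1.08, and both passed (edgeR adjusted p = 0.0013 and 0.00669).

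HSPA1A was 4.08, 146.4 and 136.4 CPM in NC, 35.27, 56.74 and 1.82 CPM in Activin, and 5.31, 2.94 and 291.2 CPM in Activin+HGF. The libraries inside each group differed by more than the group means did. The share of HSPA1A in the summed count of the pair was 31.6% to 34.3% in 5 libraries and 0.124% to 2.43% in the other 4, and both kinds occurred in every group. No comparison passed for HSPA1A (edgeR adjusted p = 0.569, 0.54 and 0.982).

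The sum of both copies does not depend on the split if the counting only moved reads between them. It was 274.3, 426.3 and 398.2 CPM in NC, 111.5, 177.0 and 74.97 CPM in Activin, and 4289, 565.9 and 874.9 CPM in Activin+HGF. In NC and Activin the sum was lowest in the library with the lowest HSPA1A share (1.49% and 2.43%). Activin+HGF replicate 2, at a share of 0.519%, also had a lower sum than replicate 3, at 33.3%. Replicate 1 had the lowest share and the highest sum. Whether the sum still carries the assignment of reads was not tested. Fitted as 1 gene, the pair changed by -1.60 in Activin against NC, which did not pass (edgeR adjusted p = 0.116). It rose by 3.98 in Activin+HGF against Activin (edgeR adjusted p = 0.009) and by 2.38 against NC (edgeR adjusted p = 0.0201). Leaving out Activin+HGF replicate 1 as well, an alternative chosen after seeing the data, gave 2.58 against Activin, which passed (edgeR adjusted p = 0.00924), and 0.98 against NC, which did not (edgeR adjusted p = 0.0696). In that fit the fall of the pair in Activin against NC passed (-1.60, edgeR adjusted p = 0.00865). Their elements printed above carry the same capitals.

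**Figure D3:**
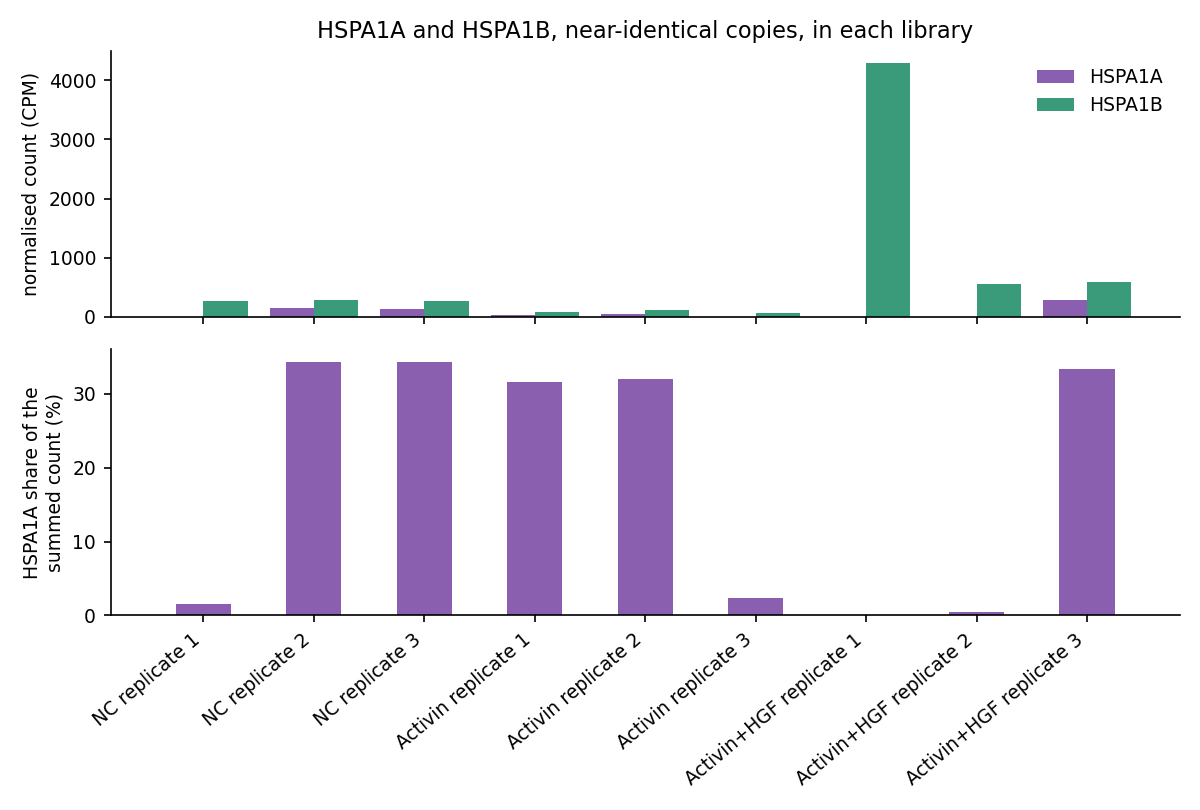
Top, normalised count (CPM) of HSPA1A and HSPA1B in each library; bottom, the share of HSPA1A in the summed count of the pair (percent). HSPA1B reaches 4284 CPM in Activin+HGF replicate 1, and the HSPA1A share takes either 31.6% to 34.3% or at most 2.43%, with both in every group.

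DNAJB1 (chromosome 19, 14514769 to 14529308, minus strand) encodes HSP40, the J-domain partner of the inducible HSP70. Its normalised count was 158.6, 212.0 and 198.8 CPM in NC and 185.2, 256.0 and 171.5 CPM in Activin. In Activin+HGF it was 2187, 446.1 and 489.1 CPM. NC and Activin overlapped, and every Activin+HGF library lay above both. DNAJB1 differed by 0.11 in Activin against NC (95% interval -1.03 to 1.24, edgeR adjusted p = 0.921). It rose by 2.35 in Activin+HGF against Activin (SE 0.538, edgeR adjusted p = 0.0212), or 5.09-fold, and by 2.46 against NC (SE 0.54, edgeR adjusted p = 0.00681), or 5.48-fold. The changes were 1.20 and 1.30 without Activin+HGF replicate 1, and both passed (edgeR adjusted p = 0.0146 and 0.00248). The rise against Activin did not pass without Activin replicate 1 (2.22, edgeR adjusted p = 0.0925) or replicate 3 (2.16, edgeR adjusted p = 0.0884).

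HSPH1 (chromosome 13, 31134973 to 31162388, minus strand) encodes HSP110, the nucleotide exchange factor of HSP70. It was 175.4, 142.3 and 173.3 CPM in NC, 39.71, 20.28 and 38.94 CPM in Activin, and 189.1, 83.47 and 72.69 CPM in Activin+HGF. Activin was below both other groups. In these TMM-scaled values Activin+HGF replicate 1 lay above every NC library while replicates 2 and 3 lay below them. In FPKM, replicate 1 was 14.76, below the 14.88 to 19.22 of NC. HSPH1 fell by 2.31 in Activin against NC (SE 0.381, edgeR adjusted p = 0.00259), a 4.96-fold lower level. It rose by 1.80 in Activin+HGF against Activin (SE 0.374, edgeR adjusted p = 0.0151), or 3.49-fold. This rise was 1.25 without Activin+HGF replicate 1 and passed (edgeR adjusted p = 0.029), and it did not pass without Activin replicate 1 (1.88, edgeR adjusted p = 0.0567) or replicate 3 (1.84, edgeR adjusted p = 0.0527). Against NC the log2 fold change was -0.51 (95% interval -1.31 to 0.30, edgeR adjusted p = 0.321). It was -1.07 without Activin+HGF replicate 1 and passed (edgeR adjusted p = 0.0236).

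HSP90AA1 (chromosome 14, 102080742 to 102139699, minus strand) encodes the inducible cytosolic HSP90. Its normalised count was 2016, 1870 and 1984 CPM in NC, 517.1, 309.7 and 634.7 CPM in Activin, and 2555, 935.7 and 995.0 CPM in Activin+HGF. As for HSPH1, the Activin libraries were lowest. In these TMM-scaled values Activin+HGF replicate 1 was above NC and the other 2 libraries were between NC and Activin. In FPKM, replicate 1 was 328.52, inside the 322.02 to 363.76 of NC. HSP90AA1 fell by 2.01 in Activin against NC (SE 0.388, edgeR adjusted p = 0.00609), a 4.02-fold lower level. It rose by 1.62 in Activin+HGF against Activin (SE 0.384, edgeR adjusted p = 0.0244), or 3.07-fold. This rise was 0.99 without Activin+HGF replicate 1 and passed (edgeR adjusted p = 0.0468), and it did not pass without Activin replicate 1 (1.58, edgeR adjusted p = 0.0946) or replicate 3 (1.76, edgeR adjusted p = 0.0567). The log2 fold change against NC was -0.39 (95% interval -1.22 to 0.44, edgeR adjusted p = 0.47), and it was -1.02 without Activin+HGF replicate 1, which passed (edgeR adjusted p = 0.0215). Its pseudogene HSP90AA2P held 0.953% as many counts, and adding them left the calls as they were.

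HSPD1 and HSPE1, the mitochondrial chaperonin HSP60 and its lid HSP10, lie head to head on chromosome 2, HSPD1 at 197486584 to 197500274 on the minus strand and HSPE1 at 197500140 to 197503382 on the plus strand. The annotated ends overlap, and reads from the overlap cannot be told apart unless the counting used strand. HSPD1 was 1096, 980.3 and 1004 CPM in NC, 369.9, 288.4 and 430.6 CPM in Activin, and 695.1, 545.5 and 550.9 CPM in Activin+HGF. HSPE1 was 145.5, 233.6 and 146.3 CPM in NC, 33.33, 33.67 and 58.78 CPM in Activin, and 111.6, 77.51 and 131.8 CPM in Activin+HGF. For both genes the groups did not overlap in these TMM-scaled values, with NC highest, Activin lowest and Activin+HGF between them. In FPKM, HSPD1 overlapped between Activin (up to 103.45) and Activin+HGF (from 101.45). Activin+HGF replicate 1 stood less far from replicates 2 and 3 here than for the HSP70 genes.

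HSPD1 fell by 1.50 in Activin against NC (SE 0.185, edgeR adjusted p = 0.000549), a 2.83-fold lower level. HSPE1 fell by 2.06 (SE 0.305, edgeR adjusted p = 0.00148), or 4.18-fold. In Activin+HGF against Activin, HSPD1 rose by 0.72 (SE 0.182, edgeR adjusted p = 0.0306), or 1.65-fold, and HSPE1 rose by 1.35 (SE 0.299, edgeR adjusted p = 0.0187), or 2.55-fold. Both subunits of the chamber were thus lower in Activin than in either other group. The rise of HSPD1 did not pass without Activin+HGF replicate 1 (log2 0.60, edgeR adjusted p = 0.0743), and leaving out Activin replicate 1 or 3 or Activin+HGF replicate 2 or 3 also lost it (0.65 to 0.78, edgeR adjusted p = 0.0525 to 0.125). The rise of HSPE1 did not pass without Activin replicate 1 (1.13, edgeR adjusted p = 0.101) or Activin+HGF replicate 3 (1.17, edgeR adjusted p = 0.0529). Against NC, HSPD1 fell by 0.78 in Activin+HGF (SE 0.182, edgeR adjusted p = 0.00898), or 1.72-fold, and HSPE1 differed by -0.71 (95% interval -1.36 to -0.06, edgeR adjusted p = 0.0914).

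HSPB1 (chromosome 7, 76302673 to 76304292, plus strand) encodes HSP27, a small heat shock protein. It was 211.6, 251.0 and 191.1 CPM in NC, 120.5, 267.8 and 118.6 CPM in Activin, and 272.7, 213.6 and 195.5 CPM in Activin+HGF. Activin replicate 2 was above every NC library, and the other 2 Activin libraries were below them. HSPB1 differed by -0.37 in Activin against NC (95% interval -1.04 to 0.30), by 0.43 in Activin+HGF against Activin (-0.24 to 1.10) and by 0.06 against NC (-0.61 to 0.73), and none passed (edgeR adjusted p = 0.463, 0.378 and 0.901). Without Activin replicate 2, HSPB1 was lower in Activin than in NC by a log2 fold change of -0.87 (edgeR adjusted p = 0.0114), and 0.93 higher in Activin+HGF than in Activin (edgeR adjusted p = 0.009).

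HSF1 (chromosome 8, plus strand), the factor known to bind heat shock elements, was 53.54, 59.08 and 54.44 CPM in NC, 62.56, 99.88 and 57.45 CPM in Activin, and 74.73, 94.12 and 85.85 CPM in Activin+HGF. In these TMM-scaled values the Activin+HGF libraries lay above every NC library, and Activin overlapped both. In FPKM, Activin+HGF replicate 1 was 9.22, inside the 9.18 to 9.76 of NC. HSF1 differed by 0.40 in Activin against NC (95% interval -0.08 to 0.88, edgeR adjusted p = 0.248) and by 0.21 in Activin+HGF against Activin (-0.27 to 0.69, edgeR adjusted p = 0.553). Against NC the difference in Activin+HGF was 0.61 (0.13 to 1.09) and missed the threshold (edgeR adjusted p = 0.0554). The sign of the Activin+HGF against Activin difference turned with library totals in place of TMM (-0.10) and without Activin replicate 3 (-0.01), and the difference passed without Activin replicate 2 (0.50, edgeR adjusted p = 0.0373). HSF1 acts through its protein, whose level, modification and place in the cell were not measured.

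Levels per length set the order of the members within each group, in FPKM as mean ± SD (n = 3). In NC, HSP90AA1 was highest with 345 ± 21.1, followed by HSPA8 with 280 ± 7.93 and HSPD1 with 224 ± 18.5, and these 3 neighbours did not overlap. HSPB1, at 120 ± 15.1, was above HSPA1B at 96.5 ± 2.93, which overlapped HSPE1 at 85.9 ± 23.0. DNAJB1, HSPA1A and HSPH1 overlapped as neighbours, at means of 46.6, 35.3 and 17.5, and HSF1 was lowest at 9.40 ± 0.312.

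In Activin, HSPB1 (96.1 ± 39.0), HSP90AA1 (92.5 ± 36.7) and HSPD1 (84.5 ± 22.4) overlapped as neighbours at the top, and HSPA8 was at 39.8 ± 4.45. DNAJB1 was at 52.5 ± 6.84, above HSPA8 in every library. HSPH1 was last with 3.80 ± 1.51, below the mean of HSF1 at 12.9 ± 2.83. In Activin+HGF, HSPA8 was first with 673 ± 566 and HSPA1B second with 489 ± 543, an SD that comes from replicate 1. HSP90AA1 followed at 207 ± 106 and DNAJB1 at 197 ± 170, and the first 6 genes overlapped as neighbours down to HSPB1 at 101 ± 9.39.

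The wider chaperone network was described from a list of 114 genes, of which 112 were in the table and 108 were tested. In Activin against NC, 28 fell and 5 rose, with a median log2 fold change of -0.37, against 18.0% of all genes tested passing. From Activin to Activin+HGF, 25 rose and 1 fell, with a median of 0.32, against 12.9%. With library totals in place of TMM, which moved the median of all genes tested to -0.38, 13 rose and 4 fell in that comparison. Relative to NC, in Activin+HGF 15 rose and 18 fell, or 30.6% of the network against 31.4% of all genes tested, with a median of -0.04, and with library totals 8 rose and 32 fell. The median of all genes tested was then -0.30. When Activin+HGF replicate 1 was left out, 14 rose and 0 fell in Activin+HGF against Activin, and 8 rose and 20 fell against NC. The count in Activin+HGF against Activin was most affected by Activin replicate 1, without which it was 5, and by Activin replicate 3, without which it was 8. The number of all genes passing in this comparison also moved with the library left out, as given in the last section. These counts therefore cannot be read as a change of the network alone.

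Among the other HSP90 genes, HSP90AB1, the constitutive cytosolic form, followed HSP90AA1. It was 4421, 4594 and 4362 CPM in NC, 1460, 1564 and 1452 CPM in Activin, and 4446, 2247 and 2395 CPM in Activin+HGF. It fell by 1.58 in Activin against NC (edgeR adjusted p = 0.00173), or 2.99-fold, and rose by 1.02 in Activin+HGF against Activin (edgeR adjusted p = 0.0225), or 2.03-fold. Without Activin+HGF replicate 1 that rise was 0.64 and passed (edgeR adjusted p = 0.0203), and it did not pass without Activin replicate 1 or 3 (0.94 and 0.92, edgeR adjusted p = 0.0962 and 0.0917). TRAP1, the mitochondrial HSP90, fell by 0.67 and rose by 0.70 in these comparisons (edgeR adjusted p = 0.0443 and 0.0471). Its rise did not pass without Activin+HGF replicate 1 (0.67, edgeR adjusted p = 0.0978), and its fall did not pass without any 1 of the NC libraries (-0.62 to -0.65, edgeR adjusted p = 0.106 to 0.133). HSP90B1, the form of the endoplasmic reticulum, rose by 1.01 in Activin against NC (edgeR adjusted p = 0.0278) and stood at 0.17 in Activin+HGF against Activin (edgeR adjusted p = 0.714).

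Of 12 HSP90 co-chaperones, 5 fell and 0 rose in Activin against NC, 4 rose and 0 fell in Activin+HGF against Activin, and 1 rose and 1 fell against NC. These were 41.7%, 33.3% and 16.7% of the 12, against 18.0%, 12.9% and 31.4% of all genes tested. Without Activin+HGF replicate 1, 2 rose in Activin+HGF against Activin, and the rises of CHORDC1 and STIP1 were among those lost (0.89 and 0.73, edgeR adjusted p = 0.07 and 0.0558). CHORDC1, which binds HSP90, fell by 1.24 and then rose by 0.97 (edgeR adjusted p = 0.00643 and 0.0286). STIP1, which hands clients from HSP70 to HSP90, differed by -0.49 in Activin against NC (edgeR adjusted p = 0.0973) and rose by 0.80 in Activin+HGF against Activin (edgeR adjusted p = 0.0229). FKBP5, a co-chaperone of steroid receptors, was lower by a log2 fold change of -1.50 in Activin+HGF against NC (edgeR adjusted p = 0.00426), and CDC37L1 was 0.68 higher (edgeR adjusted p = 0.0226), a call lost without Activin+HGF replicate 1 (0.61, edgeR adjusted p = 0.0526). AHSA1, which stimulates the ATPase of HSP90 and was chosen after its values were seen, fell by 1.42 and rose by 1.18 (edgeR adjusted p = 0.000413 and 0.00479).

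Of the 10 other HSP70 and HSP110 genes, 1 rose and 1 fell in Activin against NC, against 18.0% of all genes tested passing. From Activin to Activin+HGF 0 of them passed in edgeR's test, against 12.9% of all genes tested. At an unadjusted p under 0.05, which 30.1% of all genes tested met, there were 3, with DESeq2 there was 1 and with limma 0. HSPA9, the mitochondrial HSP70 that works beside HSPD1, was 575 ± 27.5, 628 ± 164 and 523 ± 48.1 CPM in NC, Activin and Activin+HGF (SD, n = 3), and it passed in no comparison (edgeR adjusted p = 0.722, 0.408 and 0.648). HSPA13, a microsomal HSP70, rose by 1.39 in Activin against NC (edgeR adjusted p = 0.00131). HSPA4, another HSP110, fell by 0.78 (edgeR adjusted p = 0.0114). HSPA4L and HSPA14 fell in Activin+HGF against NC, at -0.80 and -0.52 (edgeR adjusted p = 0.0264 and 0.0429), and the call of HSPA4L was lost without Activin+HGF replicate 1 (-0.79, edgeR adjusted p = 0.0583).

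HSPA6 is a strictly heat-inducible HSP70 that most cells do not make without stress. It had 0, 2 and 4 counts in NC, 0, 11 and 0 in Activin, and 30, 0 and 19 in Activin+HGF. HSPA1B, by contrast, had at least 1000 counts in every library. Low counts were often multiples of 4, as given above for the small nucleolar RNAs. With so few counts, a difference of HSPA6 was not detectable at this depth (edgeR adjusted p = 0.781, 0.458 and 0.237).

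Of 11 nucleotide exchange factors and co-chaperones of HSP70, 2 fell and 0 rose in Activin against NC, and 4 rose and 0 fell in Activin+HGF against Activin. These were 18.2% and 36.4% of the 11, against 18.0% and 12.9% of all genes tested. When Activin+HGF replicate 1 was left out, 1 gene rose in Activin+HGF against Activin. BAG1, which releases nucleotide from HSP70, fell by 1.47 and rose by 0.68 (edgeR adjusted p = 0.000584 and 0.0349), and the rise did not pass without that library (0.68, edgeR adjusted p = 0.061). BAG3, which is heat-inducible and links HSP70 to autophagy, was 75.81, 95.97 and 83.15 CPM in NC, 79.86, 131.2 and 84.90 CPM in Activin, and 284.1, 144.1 and 130.9 CPM in Activin+HGF. BAG3 overlapped between Activin and both other groups, and its rise passed against NC (1.13, edgeR adjusted p = 0.0182) and not against Activin (0.92, edgeR adjusted p = 0.0734). Its rise against NC was 0.70 without Activin+HGF replicate 1 and did not pass (edgeR adjusted p = 0.0511). GRPEL1 and GRPEL2, the exchange factors of mitochondrial HSP70, rose in Activin+HGF against Activin by 0.75 and 1.90 (edgeR adjusted p = 0.036 and 0.0356), and both calls were lost without that library (0.64 and 1.81, edgeR adjusted p = 0.0887 and 0.0875).

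Of 33 other J-domain genes, 5 fell and 1 rose in Activin against NC, and 5 rose and 1 fell in Activin+HGF against Activin. Each was 18.2% of the 33, against 18.0% and 12.9% of all genes tested. Without Activin+HGF replicate 1, 3 rose and 0 fell in the latter. DNAJB4, a close relative of DNAJB1, differed by 0.40 in Activin against NC (edgeR adjusted p = 0.416). Like DNAJB1 it rose in Activin+HGF, by 1.39 against Activin (edgeR adjusted p = 0.0187) and by 1.79 against NC (edgeR adjusted p = 0.00201). DNAJA1, the J-domain partner of HSPA8, was chosen after its values were seen; it fell by 1.92 and rose by 1.39 (edgeR adjusted p = 0.000589 and 0.00774). DNAJC30, a mitochondrial J-domain protein, was the gene that fell in Activin+HGF against Activin (-1.37, edgeR adjusted p = 0.0364), and it did not pass without Activin+HGF replicate 1 (-1.07, edgeR adjusted p = 0.067). DNAJC13, which acts on endosomes, was lower in Activin+HGF than in NC (-1.71, edgeR adjusted p = 0.00441). DNAJB2 was the J-domain gene that rose in Activin against NC (1.19, edgeR adjusted p = 0.00488).

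The cytosolic chaperonin TRiC, a ring that folds actin and tubulin, and prefoldin, which delivers their chains to it, had 15 genes tested. In Activin against NC 9 fell and 1 rose, in Activin+HGF against Activin 7 rose and 0 fell, and against NC 2 rose and 5 fell. These were 66.7%, 46.7% and 46.7% of the 15, against 18.0%, 12.9% and 31.4% of all genes tested. When Activin+HGF replicate 1 was left out, 5 rose and 0 fell against Activin, and 1 rose and 6 fell against NC. With limma on FPKM, 4 rose and 0 fell against Activin, and 1 rose and 8 fell against NC. DESeq2 gave 7 higher and 0 lower against Activin, and 2 higher and 5 lower against NC. CCT5, CCT2 and CCT8, subunits of TRiC, fell by 1.40, 1.24 and 1.21 in Activin against NC (edgeR adjusted p = 0.000479, 0.00108 and 0.00146). They differed in Activin+HGF against Activin by 0.42, 0.28 and 0.61, of which the last passed (edgeR adjusted p = 0.115, 0.299 and 0.0457). The rise of CCT8 was lost without Activin+HGF replicate 1 (0.59, edgeR adjusted p = 0.0916). All 3 were still below NC in Activin+HGF (-0.97, -0.96 and -0.59, edgeR adjusted p = 0.00187, 0.0023 and 0.0271). In FPKM all 3 overlapped between Activin and Activin+HGF, with means of 34.4 and 35.2 (CCT5), 35.6 and 32.8 (CCT2), and 41.7 and 48.5 (CCT8). PFDN2, a prefoldin subunit, was 68.65, 78.39 and 67.38 CPM in NC, 153.3, 187.6 and 193.9 CPM in Activin, and 412.7, 281.3 and 308.3 CPM in Activin+HGF. It thus rose in both steps, by 1.32 and then by 0.91 (edgeR adjusted p = 0.0012 and 0.0144), to a 4.67-fold higher level than in NC (edgeR adjusted p = 5.28e-05).

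**Figure D4:**
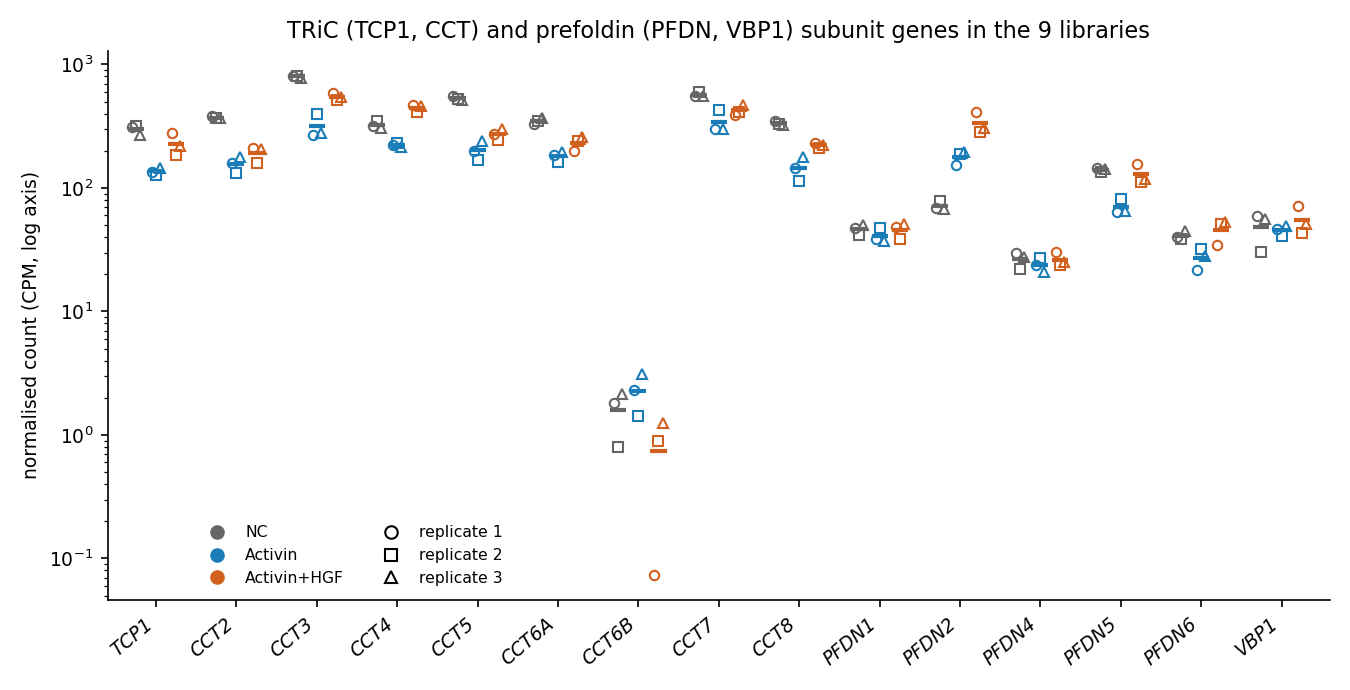
Normalised count (CPM, log axis) of the 15 TRiC and prefoldin genes in the 9 libraries, with colours for groups, symbols for replicates and bars for group means. In these TMM-scaled values the means of most TRiC subunits are highest in NC and lowest in Activin. PFDN2 rises from NC to Activin to Activin+HGF, and CCT6B is low throughout.

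Of 9 small heat shock protein genes other than HSPB1, 7 were in the table and 4 were tested. In Activin against NC and in Activin+HGF against Activin 0 of the 4 passed in edgeR's test, with 1 and 0 at an unadjusted p under 0.05 (31.2% and 30.1% of all genes tested), 1 and 0 with DESeq2, and 0 and 1 with limma. HSPB8, the partner of BAG3, rose by 0.57 in Activin+HGF against NC (edgeR adjusted p = 0.0405, and 0.49 with adjusted p = 0.08 without Activin+HGF replicate 1), and HSPB11, an intraflagellar transport protein, fell by 0.82 (edgeR adjusted p = 0.00773). Of 8 mitochondrial proteases and disaggregases, 1 fell in Activin against NC in edgeR's test, or 12.5% against 18.0% of all genes tested. DESeq2 gave 1 higher and 1 lower there, and limma 1 higher and 0 lower. In Activin+HGF against Activin 0 of the 8 passed in edgeR's test, against 12.9% of all genes tested. At an unadjusted p under 0.05 there was 1, and DESeq2 and limma gave 0. AFG3L2, an inner membrane protease, fell by 0.66 in Activin against NC (edgeR adjusted p = 0.0315), and LONP1, a matrix protease, was 0.74 higher in Activin+HGF than in NC (edgeR adjusted p = 0.027, and 0.75 with adjusted p = 0.0503 without Activin+HGF replicate 1).

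Among 6 genes for other heat shock factors and HSF1-binding proteins, 5 were tested. HSBP1, known to bind the trimer of HSF1 and to limit its activity, fell by 0.57 in Activin against NC (edgeR adjusted p = 0.0321) and rose by 1.00 in Activin+HGF against Activin (edgeR adjusted p = 0.00664). HSF2, the partner factor of HSF1, was 19.6 ± 1.48, 19.1 ± 5.07 and 19.8 ± 1.37 CPM in NC, Activin and Activin+HGF (SD, n = 3), and its log2 fold changes were -0.04, 0.06 and 0.02 (edgeR adjusted p = 0.934, 0.892 and 0.96).

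Other genes known to be induced by heat were described as a list of 15, some of which also stand in the lists above. In Activin against NC 4 fell and 1 rose, in Activin+HGF against Activin 5 rose and 0 fell, and against NC 6 rose and 2 fell. These were 33.3%, 33.3% and 53.3% of the 15, against 18.0%, 12.9% and 31.4% of all genes tested. Without Activin+HGF replicate 1, 2 rose against Activin, and 3 rose and 1 fell against NC. DEDD2, a death effector domain protein, was 22.87, 13.31 and 30.62 CPM in NC, 23.15, 28.00 and 28.08 CPM in Activin, and 156.3, 78.31 and 46.04 CPM in Activin+HGF. It rose by 1.82 in Activin+HGF against Activin (edgeR adjusted p = 0.0218, and 1.24 with adjusted p = 0.0561 without replicate 1) and by 2.07 against NC (edgeR adjusted p = 0.00474). ZFAND2A, a zinc finger protein that binds the proteasome, rose by 0.86 in Activin against NC (edgeR adjusted p = 0.0375). Of the 15 genes, 13 were highest in replicate 1 among the Activin+HGF libraries, against 39.3% of all genes tested, with a median ratio of 1.48 to the mean of the other 2. The median ratio was 0.967 over all genes tested and 0.701 over the colon epithelial markers. The ratio was 2.51 for DEDD2, 2.08 for DNAJB4, 2.07 for BAG3 and 1.70 for ZFAND2A.

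**Figure D5:**
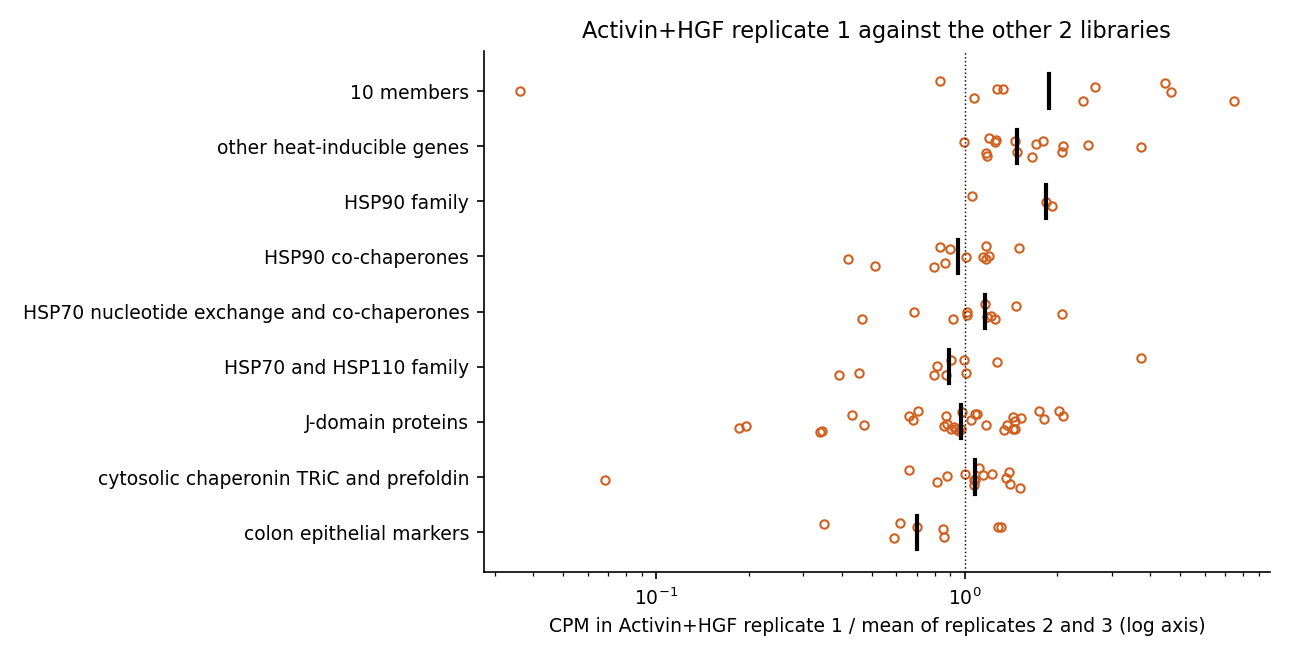
Ratio of the normalised count in Activin+HGF replicate 1 to the mean of replicates 2 and 3 (x axis, log scale), with 1 circle per gene tested and a vertical bar at the median of each list. The members have a median of 1.88 and the other heat-inducible genes 1.48, while the J-domain genes (0.972) and the HSP90 co-chaperones (0.954) lie near 1; the member far to the left is HSPA1A.

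The members were also set against their own average pattern, the mean of their standardised log values over the 9 libraries. Pearson's r to that mean, given as a description since each member is part of it, was 0.962 for HSPA8, 0.889 for HSPA1B, 0.828 for HSP90AA1, 0.824 for HSPH1 and 0.791 for HSPE1. HSPB1, HSPD1 and DNAJB1 followed at 0.736, 0.695 and 0.639. HSPA1A, at 0.195, and HSF1, at 0.0674, did not share the pattern. Among 9955 other genes with a mean of at least 10 CPM, the 5 most like the average over the 9 libraries were PTMAP5 (0.990), THOC3 (0.987), COPS9 (0.982), ZNF511 (0.981) and MRPL18 (0.978). Their changes were smaller than those of HSPA8. THOC3, a subunit of the THO complex of mRNA export, fell by 1.01 and rose by 1.16 (edgeR adjusted p = 0.00869 and 0.00978), and MRPL18, a mitochondrial ribosomal protein, fell by 0.80 and rose by 0.97 (edgeR adjusted p = 0.0205 and 0.0152). MRPL18 also stands in the list of other heat-inducible genes above. The libraries behind these values are shared, and the largest standardised value of several members is that of Activin+HGF replicate 1.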

How the data were processed

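Ribosomal RNA-depleted paired-end RNA-seq was available for 9 HCT116 libraries (3 groups of 3, from the sample titles). The authors deposited 1 table with read counts and FPKM per gene and library. The submitters' processing notes name cutadapt 1.9, HISAT2 2.0.4 and StringTie 1.3.4d. The counting settings, strandedness and genome build are not given in the sources used here; 86.9% of 32961 genes matched by identifier shared their chromosome and a start or end with a GRCh38 annotation.

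From the deposited counts, genes were filtered with filterByExpr, scaled by TMM and fitted with edgeR 4.0.16 (R 4.3.3; glmQLFit, glmQLFTest) on group means of all 9 libraries. A gene passed at a Benjamini-Hochberg adjusted p under 0.05 over 20988 genes. The SE and the 95% interval were derived from the log2 fold change and the F statistic. CPM were TMM-scaled. The deposited FPKM served for levels between genes and for limma 3.58.1 on log2(FPKM + 1) and log2(FPKM + 0.1), with genes of at least 0.5 FPKM in 3 libraries. DESeq2 1.42.0, other scalings, no filter, a replicate block, the 6 libraries compared, each library left out, a 2-fold rule, and sums with near-identical genes were alternatives. The sum of HSPA1A and HSPA1B without Activin+HGF replicate 1, and the values of listed genes with each library left out, were added after seeing the data. The fitting was tested on simulated data. Promoter sequences were from RefSeq (GRCh38.p14). Of the members, 9 had at least 1000 counts in every library, and counts give counting error only.

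Members and gene lists were chosen with earlier results of these data known. The genes named were all members and, from each list, up to 4 genes that passed in any comparison with a mean of at least 1 CPM, by the largest change in Activin+HGF against NC, plus HSP90AB1, HSPA9, BAG3, HSPA6 and HSF2. SNORD14C, SNORD14D, SNORD14E, AHSA1, DNAJA1 and CCT6B were named outside this rule. So were the genes most alike in pattern and the pseudogene HSP90AA2P. Replicate numbers did not pair libraries (r of same-numbered deviations -0.103 to 0.195 over 9 pairs).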

Additional observations from a re-analysis of the deposited data

How the results depend on the processing

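Of 489 refits of single members, 416 kept direction and side of the threshold, 34 lost a call, 18 gained one and 21 changed sign; the cause was not tested. Every sign change was of a value without a call. In Activin+HGF against Activin, HSPA1A stood at -0.13 and -0.26 with limma, -0.76 with a replicate block and -2.93 to 2.43 when 1 library was left out, and HSF1 at -0.10 with library totals, -0.12 and -0.13 with limma and -0.01 to 0.50 when 1 library was left out. Against NC in Activin+HGF, HSPA1A stood at -0.15 with library totals, -1.34 and -1.64 with limma, -0.78 with a replicate block and -4.54 to 0.63 when 1 library was left out, and HSPB1 at -0.22, -0.24 and -0.24 with library totals and limma and -0.09 to 0.15 when 1 library was left out. DNAJB1 in Activin against NC stood at -0.09 to 0.25 when 1 library was left out.

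Counts of passing genes moved as follows in Activin against NC, Activin+HGF against Activin and Activin+HGF against NC. With the 2-fold rule all genes tested gave 2394, 1697 and 4519, and the wider network 18, 9 and 14. With 1 library left out all genes gave 2021 to 4124, 686 to 4533 and 4260 to 5670, the members 5 to 6, 2 to 9 and 3 to 5, and the network 22 to 40, 5 to 34 and 19 to 28. For Activin+HGF against Activin alone, library totals gave 4 members and 17 network genes, the 6 libraries compared gave 714 genes, 2 members and 7 network genes, and DESeq2 gave 4510 genes. Under the replicate block 5, 7 and 4 members passed, as without it; the call of HSPA8 against NC was lost (1.34, edgeR adjusted p = 0.0654) and HSF1 gained one (0.60, edgeR adjusted p = 0.041). That HSPA8 call was also lost with library totals (1.30, edgeR adjusted p = 0.0505), limma (0.94 for both pseudocounts) and the 6 libraries compared (1.65, edgeR adjusted p = 0.0646). DESeq2 gave no adjusted p for HSPA1B, whose log2 fold changes were -1.58, 4.35 and 2.77. Without NC replicate 3, 19 network genes passed against NC. Groups of 3 libraries were not searched for outlying values.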
